A study of Mus musculus with 6 samples.

Results

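Gls2, Glul, Glud1, Oat, Etnppl and Rhbg encode proteins that pass nitrogen between glutamine, glutamate, ornithine and free ammonia in the liver. They were taken by gene symbol from a table of 55450 genes, and all 6 were found and all 6 were abundant enough to be tested. The libraries were made from polyadenylated RNA of 6 mice of strain C57BL/J, 1 library each, and the tissue was the left lobe of the liver. In the 3 knockout (KO) mice, whose alleles of LKB1 were flanked by loxP sites, and in 3 wild-type (WT) mice, Cre recombinase was delivered by AAV8, an adeno-associated virus, at 6 weeks of age. Tissue was collected after a further 4 weeks, when the mice were 10 weeks old. Both groups therefore carried virus and Cre, and differed by the floxed alleles. The promoter that drives Cre is not given in the sources used here, and bulk tissue includes cells that the virus may not reach.

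Ammonia handling in the liver lobule is divided by position. Periportal hepatocytes, which meet incoming blood first, hydrolyse glutamine with the liver glutaminase Gls2 and feed the ammonia into the urea cycle. A narrow ring of pericentral hepatocytes around the central vein captures the ammonia that escapes and fixes it on glutamate with glutamine synthetase, encoded by Glul. The mitochondrial enzymes Glud1 (glutamate dehydrogenase, which interconverts glutamate with 2-oxoglutarate and ammonia) and Oat (ornithine aminotransferase, which links ornithine to glutamate semialdehyde) connect these pools, and Oat is known as a pericentral enzyme. Rhbg is an ammonia channel of the pericentral hepatocyte membrane. Etnppl is a phospholyase that splits phosphoethanolamine into acetaldehyde, phosphate and ammonia.

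Total counts ran from 47659122 to 56147667 per library. Stk11, which encodes LKB1, was at 22.15, 14.42 and 11.38 CPM (counts scaled to library size) in KO 1, 2 and 3. In WT it was at 64.18 to 69.68 CPM, with no overlap. The libraries also differed in a way the labels leave out. Replicate 1 of each group had at least 29243 Xist counts and at most 6 counts over 4 Y-linked genes, whereas the other 4 libraries had at most 16 Xist counts and at least 6146 Y-linked counts. Results are therefore also given for replicates 2 and 3 alone, which leaves 2 libraries against 2. All 8 hepatocyte markers checked were detected, and their summed level was 24450 to 70080 CPM in KO and 84370 to 121500 CPM in WT. Alb (albumin) was the largest part of that sum in every library, at 10390 to 50550 CPM in KO and 57060 to 95630 CPM in WT. In KO 2 it made up 10390 of 24450 CPM. Of the 8 markers, 5 had a negative and 3 a positive log2 fold change. The summed level of 12 endothelial markers was also lower, at 115.7 to 184.1 against 220.6 to 302.8 CPM, while the sums of 8 macrophage, 8 stellate and 7 bile duct markers overlapped between the groups. In every one of these marker lists all genes were above 3 counts in at least 1 library. Their part in the results below was not tested.

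Oat, Etnppl and Gls2 were higher in each KO library than in any WT library, and Glul and Glud1 were lower in each. Oat was 7.95-fold, Etnppl 9.79-fold and Gls2 4.36-fold higher by group means, and these 3 genes rose past an adjusted p-value of 0.05, a threshold that 3.37% of all genes tested passed in either direction. Glul fell to between 30.25 and 476.5 CPM in KO from at least 925.5 CPM in WT, but its KO libraries were so far apart that the difference did not pass the test over all 6 libraries. Glud1 and Rhbg, with log2 fold changes of -0.37 and 0.56, did not pass it either, and Rhbg overlapped between the groups. Of all 14539 genes tested, 2.15% rose past the same threshold, against 3 of the 6 described here. For 5 of the 6 the KO and WT libraries did not overlap, 3 above and 2 below, against 32.4% of all genes tested. With edgeR's quasi-likelihood test 0 of the 6 were called lower, against 1.22% of all genes. At an unadjusted p-value under 0.05 there was 1 lower gene, Glul, beside the 3 higher genes (26.3% of all genes passed this in either direction). DESeq2 and limma voom each also called 0 of the 6 lower and 3 higher. Of all 14539 genes tested, DESeq2 called 1271 higher and 1019 lower, and limma voom far fewer, 254 and 178.

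**Figure D1:**
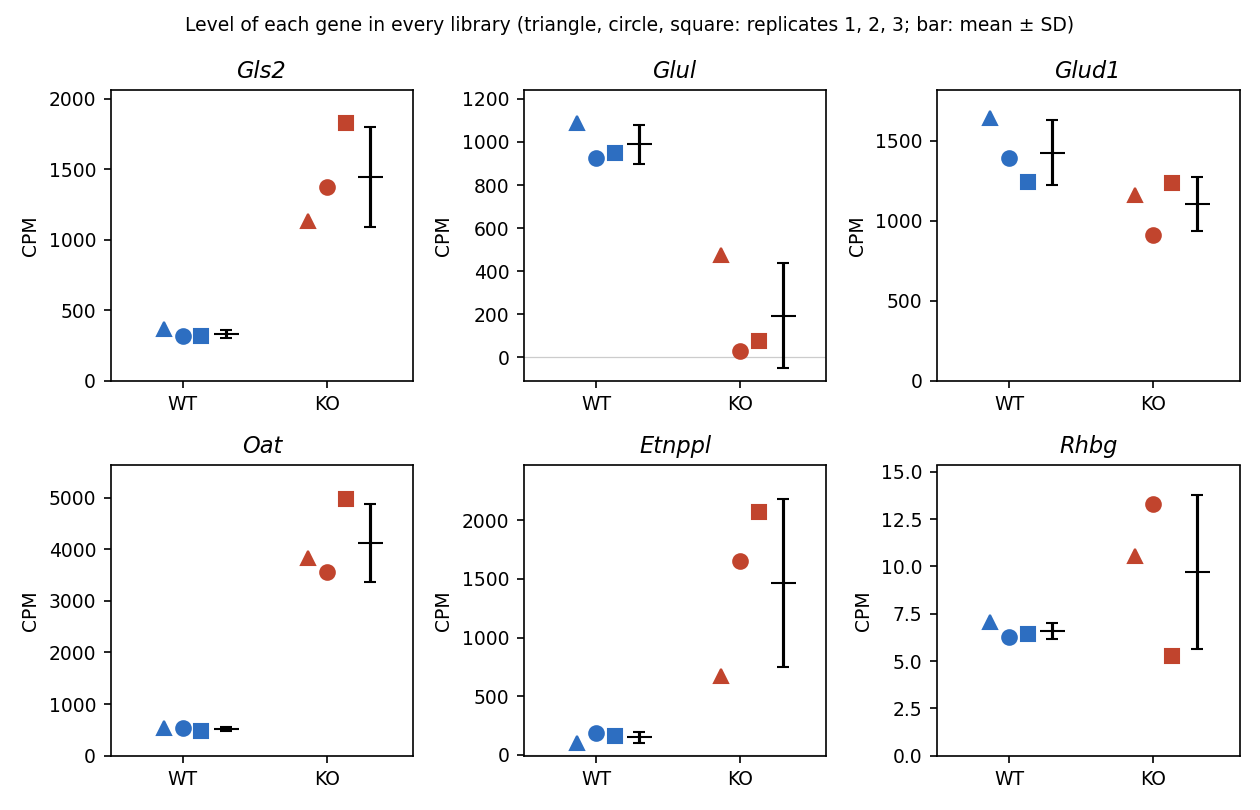
Level of each gene in CPM (linear axes starting at or just below 0) in the 3 WT libraries (blue) and the 3 KO libraries (red); triangles, circles and squares are replicates 1, 2 and 3, and the black bar is the mean ± SD. Gls2, Oat and Etnppl are higher in all 3 KO libraries, Glul is lower in all 3, with KO 1 at 476.5 CPM well above KO 2 and KO 3, and Rhbg overlaps between the groups.

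Oat and Etnppl, the genes with the largest rises, also had a promoter in the RefSeq table (build GRCm38.p6), and the 250 bases before their annotated starts are shown to let a reader see what DNA lies upstream of genes that rose together. The Oat window is chr7:132576399-132576648 on the minus strand. The Etnppl window, before the first of its 2 annotated starts, is chr3:130617198-130617447 on the plus strand. Both are written 5′ to 3′ along the gene, and capitals mark the letters CCAAT or their reverse complement.
Oat: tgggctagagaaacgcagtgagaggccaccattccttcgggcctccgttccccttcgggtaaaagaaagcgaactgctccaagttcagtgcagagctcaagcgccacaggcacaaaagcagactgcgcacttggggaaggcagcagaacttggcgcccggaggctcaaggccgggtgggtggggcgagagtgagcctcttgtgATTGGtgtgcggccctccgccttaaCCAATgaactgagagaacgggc
Etnppl: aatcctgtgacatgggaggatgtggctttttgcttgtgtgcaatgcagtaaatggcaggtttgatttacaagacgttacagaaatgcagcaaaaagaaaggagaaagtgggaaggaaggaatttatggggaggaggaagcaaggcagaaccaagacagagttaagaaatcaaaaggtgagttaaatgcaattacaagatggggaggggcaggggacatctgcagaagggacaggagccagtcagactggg

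Promoters of 4 of the 6 genes (Glul, Oat, Glud1 and Etnppl) were matched in that table. Searched on both strands, none of their windows held TGACGTCA (the full cAMP response element), TGACG (its shorter form, contained in the full element), CTTTGAA or CTTTGAT (forms of the TCF/LEF site) or CAAAGTCCA (a form of the HNF4A site). Of 32851 promoter windows of this length in the table, 1.55%, 17.8%, 4.46%, 3.21% and 0.384% held these in turn. The motif CCAAT was added after the sequences had been read. It occurs at positions -47 to -43 (minus strand) and -22 to -18 before the Oat start and at -113 to -109 and -50 to -46 before the Glul start, and in 33.8% of all windows. The Etnppl and Glud1 windows hold no copy. These are matches of letters only, in short windows.

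Gls2 (ENSMUSG00000044005.13, GRCm38 chromosome 10, 128194457 to 128210004, plus strand, protein-coding) hydrolyses glutamine to glutamate and ammonia. It had 1133, 1374 and 1830 CPM in KO 1, 2 and 3 and 364.5, 313.8 and 317.2 CPM in WT 1, 2 and 3. In CPM, the lowest KO library was about as far above the highest WT library as the KO libraries were from each other. On the log2 scale KO 1 was 1.77 and WT 1 was 0.14 above the WT mean, and the range within KO was 0.69. KO averaged 1446 ± 354 CPM and WT 332 ± 28.3 CPM (SD, n = 3). On the log2 scale the rise was 2.12 ± 0.236 (SE; adjusted p = 0.0132 in edgeR's quasi-likelihood test). The call was lost without WT 2 (adjusted p = 0.112) or WT 3 (adjusted p = 0.104), although the log2 fold change stayed between 1.92 and 2.26 when any 1 library was left out. Calls over all genes also fell, from 313 higher to 5 without WT 2 and 17 without WT 3.

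Oat (ENSMUSG00000030934.9, chromosome 7, 132557478 to 132576398, minus strand, protein-coding) had the smallest p-value of the 6 genes and ranked 15 by p-value among all genes tested. Its level was 3832, 3568 and 4983 CPM in KO 1, 2 and 3, against 538, 537 and 481.7 CPM in WT 1, 2 and 3. All 3 KO libraries were far above WT and close to each other, KO 1 included. Means were 4128 ± 752 and 519 ± 32.2 CPM (SD, n = 3), and the fitted log2 difference was 2.99 ± 0.236 (SE; edgeR adjusted p = 0.0047). The adjusted p was 0.0639 without WT 2 and 0.0613 without WT 3, at log2 fold changes of 3.02 and 2.94. In these runs 5 and 17 of all genes were called higher, against 313 with every library kept. Oat lies inside the annotated range of Fgfr2 on the same strand but shares 0 exon bases with it.

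Etnppl (ENSMUSG00000019232.14, chromosome 3, 130617448 to 130637521, plus strand, protein-coding) was measured at 673.6, 1651 and 2070 CPM in KO 1, 2 and 3 and at 96.5, 189 and 163.5 CPM in WT 1, 2 and 3. KO 1 was the lowest of the KO libraries and WT 1 the lowest of the WT libraries, and the groups did not overlap. Means were 1465 ± 717 CPM in KO and 149.7 ± 47.8 CPM in WT (SD, n = 3). The log2 fold change was 3.29 ± 0.484 (SE, adjusted p = 0.0261 in edgeR), which ranked 44 from the top among 7504 genes with a mean of at least 10 CPM. This call was the least firm of the 3. It held without KO 1 (log2 fold change 3.63) but was lost without KO 2, KO 3, WT 1, WT 2 or WT 3, where adjusted p-values were 0.072, 0.11, 0.0602, 0.138 and 0.14 and log2 fold changes 2.96 to 3.49. Calls over all genes shifted in the same way. Higher calls went from 313 to 2372 without KO 1, and to 72, 31, 152, 5 and 17 in the other runs in turn. The closest relative of Etnppl in the pathway, the phospholyase Phykpl, which acts on phosphohydroxylysine, was at 13.4 ± 0.833 against 10.45 ± 0.699 CPM, a log2 fold change of 0.36 that did not pass the threshold (adjusted p = 0.132).

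Glul (ENSMUSG00000026473.15, chromosome 1, 153899944 to 153909723, plus strand, protein-coding) had 476.5, 30.25 and 76.58 CPM in KO 1, 2 and 3 and 1090, 925.5 and 949.1 CPM in WT 1, 2 and 3. Every KO library was below every WT library. KO 1, the KO library with the highest Stk11 level, was far closer to WT than KO 2 and KO 3 were. Relative to the WT mean on the log2 CPM scale, KO 1 was at -1.05, KO 2 at -5.02 and KO 3 at -3.69. The range within KO was 3.98 on this scale, against 0.24 within WT, and was the widest of the 6 genes. These levels rest on 1680 to 27774 counts per KO library. Means were 194 ± 245 and 988 ± 88.7 CPM (SD, n = 3), and the log2 fold change was -2.35 ± 0.931 (SE, adjusted p = 0.17 in edgeR). Without KO 1 it was -4.22 (adjusted p = 0.0028), a fit in which 30.2% of all genes were called and 14.2% were called lower, and with replicates 2 and 3 alone it was -4.14 (adjusted p = 0.00341), with 16.1% of all genes called lower. In bulk tissue, fewer cells of a type and less RNA per cell cannot be told apart.

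Whether the KO effect differed between the replicate 1 pair, which had Xist counts, and replicates 2 and 3 was tested as an interaction. For Glul, the log2 ratio of KO to WT was -1.19 in the replicate 1 pair and -4.28 in replicates 2 and 3. The interaction was 2.94 ± 0.748 (SE, log2 scale), which did not pass the threshold (adjusted p = 0.118 in edgeR, against 2.9% of all genes called, 1.71% with a positive and 1.19% with a negative interaction). With no filter on low counts the estimate was nearly the same, at 2.97, but did pass the threshold. The share of all genes called in that fit was not counted, so this pass cannot be set beside it. The corresponding ratios were 1.64 and 2.33 for Gls2, 2.83 and 3.05 for Oat and 2.80 and 3.39 for Etnppl, with adjusted p-values of 0.333, 0.795 and 0.392. The direction of these 4 genes was thus the same in both subsets. The replicate 1 pair is 1 library against 1, so the test rests on few libraries and a p-value above the threshold does not show equal effects. Stk11 itself had a log2 ratio of KO to WT of -1.58 in that pair and -2.38 in replicates 2 and 3. The Xist or Y-linked state and the depth of Stk11 loss therefore cannot be told apart here.

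**Figure D2:**
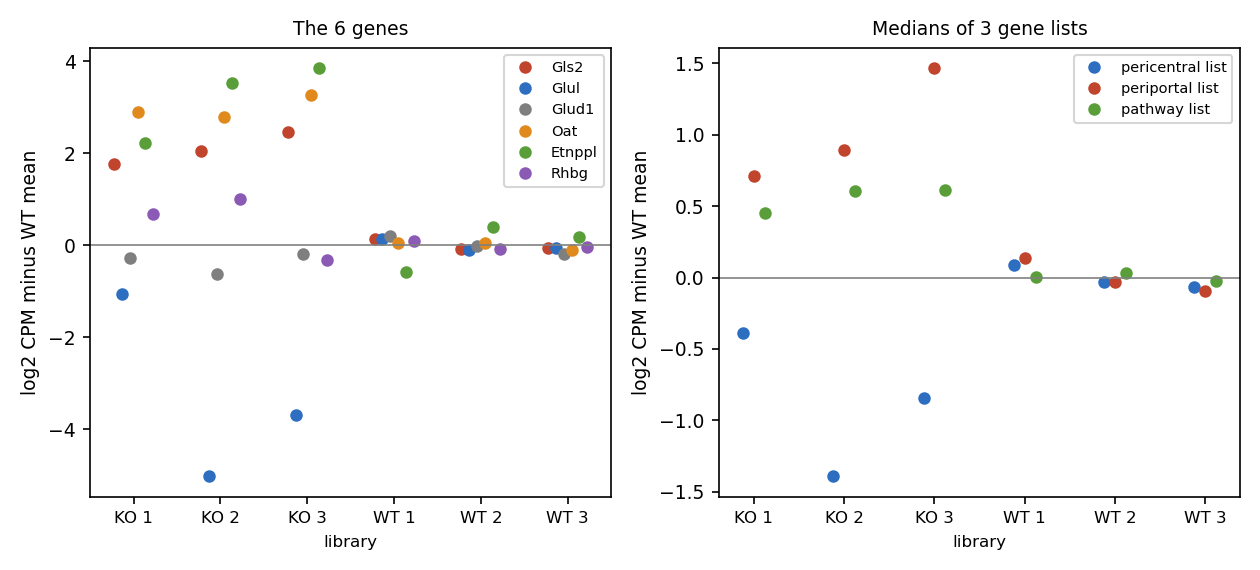
Left, the log2 CPM of each gene in each library minus the mean of the 3 WT libraries; right, the median of the same difference over the genes of the pericentral, periportal and pathway lists. Points are single libraries on linear log2 axes: Oat is close to 3 in all 3 KO libraries, while Glul ranges from -5.02 in KO 2 to -1.05 in KO 1, and the pericentral median is likewise lowest in KO 2 at -1.39 and nearest 0 in KO 1 at -0.387.

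Glud1 (ENSMUSG00000021794.16, chromosome 14, 34310727 to 34345265, plus strand, protein-coding) had 1163, 912.5 and 1237 CPM in KO and 1642, 1392 and 1240 CPM in WT. The groups were separate only by the small gap between KO 3 and WT 3. The log2 fold change was -0.37 ± 0.215 (SE, adjusted p = 0.318 in edgeR), and it stayed between -0.46 and -0.24 when any 1 library was left out. Counts of Glud1 were not whole numbers in any of the 6 libraries, and the source of the fractions was not tested. The processed pseudogene Glud-ps, 97.6% identical over 656 aligned bases, took 33.72 to 67.69 counts, against at least 50686 for Glud1.

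Rhbg (ENSMUSG00000104445.1, chromosome 3, 88242874 to 88254709, minus strand, protein-coding) was the least abundant gene, with 10.55, 13.29 and 5.285 CPM in KO and 7.078, 6.267 and 6.436 CPM in WT. KO 1 and KO 2 were above all WT libraries and KO 3 was below all of them. The log2 difference, 0.56 ± 0.319 (SE), missed the threshold (adjusted p = 0.308 in edgeR). Rhbg shares 1190 exon bases on the same strand with Gm38392, which took 0 to 98.78 counts per library against 249 to 738 for Rhbg. With both summed, an alternative chosen after seeing the data, the log2 fold change was 0.52 (adjusted p = 0.355). The related channels Rhag and Rhcg had 0 CPM in every library.

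For Glul, the most similar copies were the processed pseudogenes Glns-ps1 and AC134576.3, 96.8% and 93.0% identical over 1126 and 1122 bases. They took at most 16.19 and 4.13 counts in any library. No transcript of another gene at least 90% identical over at least 200 bases was found for Gls2, Oat or Etnppl. The 3′ end of Gls2 shares 97 exon bases with Spryd4 on the opposite strand, which had 1130 to 1999 counts per library, and 116 exon bases of Glul are shared with Teddm2, which had 5 to 30. The use of strand in counting is not given in the sources used here, so reads in these stretches are uncertain.

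Levels of different genes were compared as CPM per kb of annotated exon. In WT liver, Glud1 was highest at 339 ± 48.2, followed by Glul at 297 ± 26.7, Oat at 220 ± 13.7, Gls2 at 95.5 ± 8.16, Etnppl at 18.1 ± 5.78 and Rhbg at 3.404 ± 0.2207 CPM per kb (SD, n = 3). Glud1 and Glul overlapped in WT, and each later neighbour was separate from the one before it. In KO liver the order was Oat at 1749 ± 319, Gls2 at 416 ± 102, Glud1 at 262 ± 40.3, Etnppl at 177 ± 86.7, Glul at 58.5 ± 73.8 and Rhbg at 5.01 ± 2.10 CPM per kb. Here Glud1 overlapped Etnppl and Etnppl overlapped Glul. Etnppl has a long annotated exon total of 8262 bases. With the length of the principal transcript, 4468 bases, its KO level was 328 ± 160 CPM per kb and overlapped Gls2 and Glud1. Oat thus went from the third of the 6 places to the first, and Glul from the second to the fifth, under both lengths.

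The ratio of one gene to another within a library depends little on how libraries are scaled, and was taken from log2 CPM with a prior count of 2. The log2 ratio of Gls2 to Glul was 1.25, 5.50 and 4.58 in KO 1, 2 and 3 and -1.58, -1.56 and -1.58 in WT 1, 2 and 3. In WT the 3 values were nearly the same, and in KO all 3 were higher and far apart. The difference of the means was 5.35 (exact two-sided permutation p = 0.1, n = 3 each, the smallest value that 3 against 3 allows). For Oat to Glul the log2 ratio was 3.01, 6.88 and 6.02 in KO and -1.02, -0.79 and -0.98 in WT. The difference was 6.23 (exact permutation p = 0.1, n = 3 each), and both p-values were 0.1 after Benjamini-Hochberg adjustment over the 2 ratios.

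**Figure D3:**
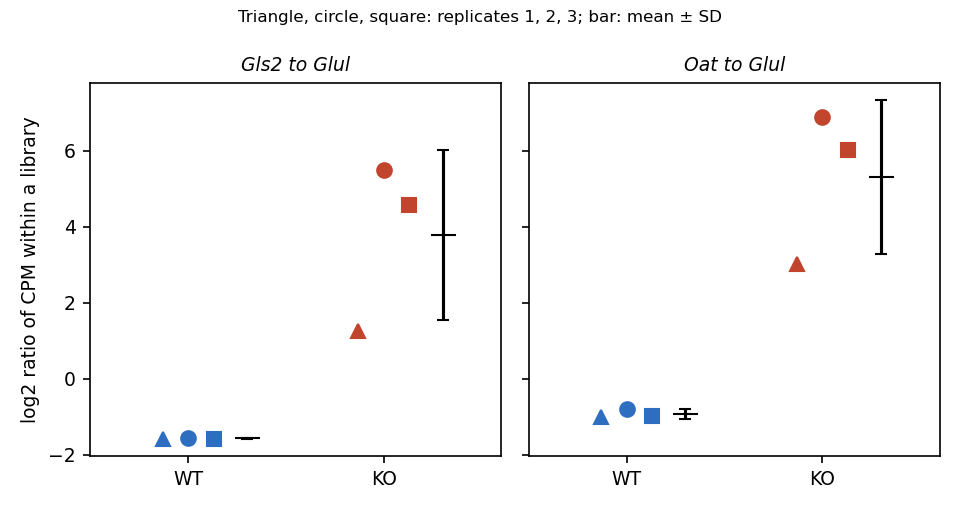
Log2 ratio of Gls2 to Glul (left) and Oat to Glul (right) CPM within each library, with WT in blue and KO in red; triangles, circles and squares are replicates 1, 2 and 3 and bars are mean ± SD. The 3 WT libraries lie between -1.58 and -0.79 and every KO library is above them, with KO 1 lowest at 1.25 and 3.01; the ratios are not per length, so only their differences between libraries can be read.

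Beyond these 6 genes, 59 other genes that use, make or carry glutamine, glutamate, ornithine or ammonia were listed, of which 53 were tested. In KO, 8 rose and 1 fell past the threshold (edgeR), against 2.15% and 1.22% of all genes tested, and the median log2 fold change was 0.64 against 0.01 for all genes. The KO and WT libraries did not overlap for 33 higher and 4 lower genes of the 53, against 16.9% and 15.5% of all genes. The count of calls depended on the libraries. It was 0 in both directions without KO 2, KO 3, WT 2 or WT 3, and 2 higher and 0 lower without WT 1. Calls over all genes also fell in these runs. They were 72 higher and 14 lower without KO 2, 31 and 4 without KO 3, and 152 and 110 without WT 1. Without WT 2 they were 5 and 1, and without WT 3 they were 17 and 3. The list had 25 higher and 5 lower calls without KO 1 (16% and 14.2% of all genes). With replicates 2 and 3 alone it had 24 higher and 4 lower, where 17.2% and 16.1% of all genes were called.

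Aminotransferases, which move the amino group of glutamate to and from other carbon skeletons, held 3 of the 8 rises. That was 3 of 6 tested, where 2.15% of all genes tested rose past the threshold. Got1, the cytosolic aspartate aminotransferase, averaged 1489 ± 584 CPM in KO against 163 ± 60.4 CPM in WT (SD, n = 3), with a fitted log2 difference of 3.19 ± 0.431 (SE; edgeR adjusted p = 0.0214). Gpt2, the mitochondrial alanine aminotransferase, rose by 1.71 (adjusted p = 0.0331) and Tat, tyrosine aminotransferase, by 1.86 (adjusted p = 0.0344). All 6 listed aminotransferases were higher in every KO library than in any WT library, against 16.9% of all genes tested. Their log2 fold changes ranged from 0.15 to 3.19.

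Among the 10 tested carriers, Slc25a15, which brings ornithine into mitochondria where Oat and the urea cycle use it, rose from 360.2 ± 23.3 to 1113 ± 241 CPM (SD, n = 3; log2 fold change 1.63 ± 0.220, adjusted p = 0.0215 in edgeR). Slc25a22, a mitochondrial glutamate carrier, was at 503.9 ± 208 against 174 ± 26.0 CPM and narrowly missed the threshold (adjusted p = 0.0525). Of the 10, 9 had a positive log2 fold change, with a median of 1.07 and a range from -0.32 to 1.63. The KO and WT libraries did not overlap for 7, all KO above, against 16.9% of all genes tested. Slc38a3, which carries glutamine in and out of hepatocytes, had a log2 fold change of 0.36 (adjusted p = 0.323), and Slc1a2, a pericentral glutamate transporter, of -0.32 (adjusted p = 0.403).

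Histidine breakdown, which ends in glutamate, held 2 of the rises among its 4 tested genes, against 2.15% of all genes tested. Uroc1 (urocanase) rose by 1.05 and Ftcd (formiminotransferase cyclodeaminase, which yields glutamate and ammonia) by 1.38 (log2; edgeR adjusted p = 0.044 and 0.0281). Hal (histidine ammonia-lyase), the first enzyme of this route, had a log2 fold change of 0.92 and did not pass (adjusted p = 0.0878). On the side of the urea cycle, Nags, whose product N-acetylglutamate activates carbamoyl phosphate synthetase, rose to 90.4 ± 12.7 CPM in KO, against 51.6 ± 2.30 CPM in WT (SD, n = 3; edgeR adjusted p = 0.0383). Cps1 (carbamoyl phosphate synthetase), Arg1 (arginase, which releases ornithine) and Otc (ornithine transcarbamylase) had log2 fold changes of 1.17, 2.30 and -0.29 with adjusted p-values of 0.0983, 0.0618 and 0.573.

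Of 11 other genes of glutamine-using enzymes, Nadsyn1 (glutamine-dependent NAD synthetase) alone rose past the threshold, by 1.02 on the log2 scale (adjusted p = 0.047 in edgeR). Of all genes tested, 2.15% rose past it. In limma voom 0 of these 11 were called, and in DESeq2 5 were called higher and 2 lower. Of all 14539 genes, DESeq2 called 1271 higher and 1019 lower, and limma voom 254 and 178. Asns, which uses glutamine to make asparagine, had 13.96, 47.53 and 43.68 CPM in KO and 0.6506, 4.551 and 7.163 CPM in WT. Both groups were spread widely without overlap, and the log2 difference, 3.09 ± 0.835, missed the threshold (adjusted p = 0.083). In the branch from ornithine to polyamines, Azin1, an inhibitor of the antizymes that restrain ornithine decarboxylase, was the gene that fell, from 109.2 ± 4.30 to 72.3 ± 1.38 CPM (SD, n = 3; log2 fold change -0.60 ± 0.112, adjusted p = 0.044). That call was lost when libraries were scaled by total count alone. The 6 tested genes between glutamate and proline and the 3 of glutathione synthesis and turnover held 0 calls in edgeR, with 1 and 0 genes at an unadjusted p-value under 0.05, 1 and 0 calls in DESeq2 and 0 in limma voom. Over all genes, 3.37% were called in edgeR and 26.3% had an unadjusted p-value under 0.05. With so few genes, 0 calls does not show that these branches were unchanged.

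**Figure D4:**
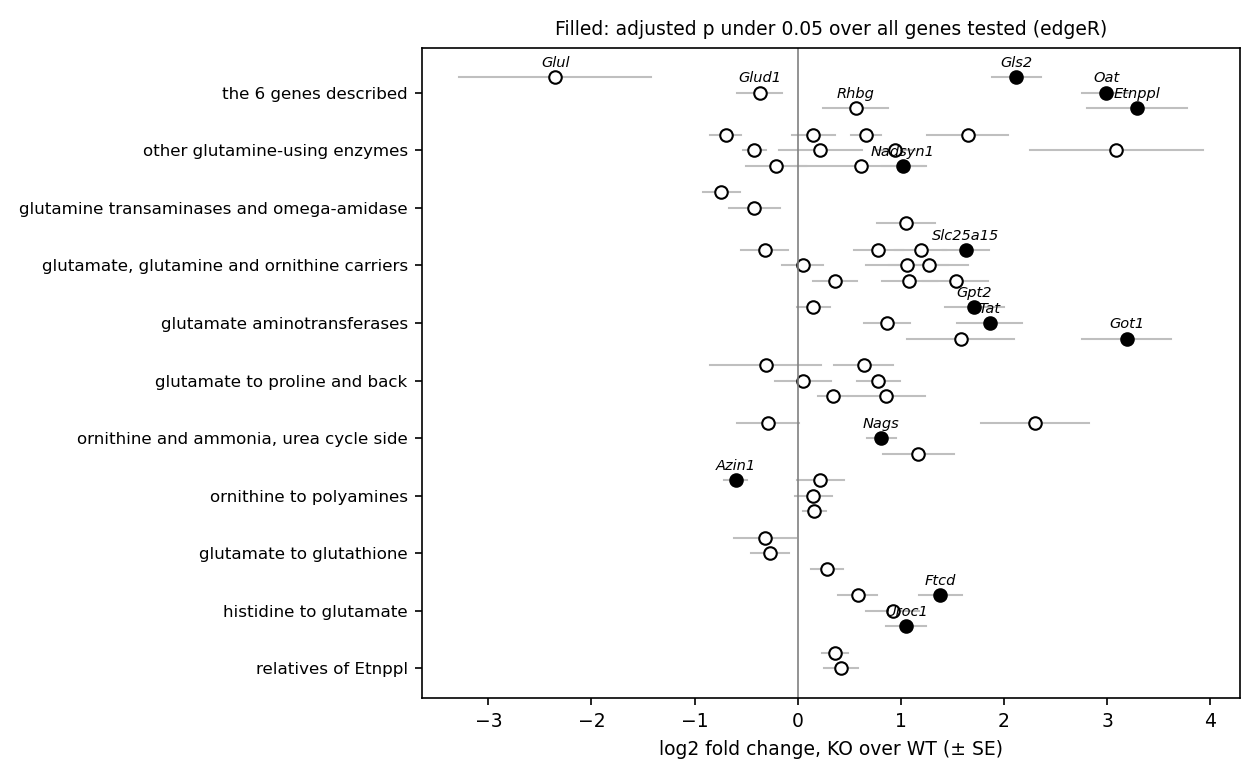
Log2 fold change of KO over WT with its SE for the 6 genes described (top row) and for 53 other genes of the pathway, grouped by role; filled points passed an adjusted p of 0.05 in edgeR over all genes tested and are named. Oat, Etnppl and Gls2 lie at 2.99, 3.29 and 2.12, and among the other genes Got1 lies furthest right at 3.19.

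Because Gls2 marks the periportal zone and Glul, Oat and Rhbg the pericentral zone, lists of other genes of both zones were set beside them. Of 22 pericentral genes, 3 fell and 1 rose past the threshold in edgeR, against 1.22% and 2.15% of all genes tested, and their median log2 fold change was -0.90. Cyp1a2, a pericentral cytochrome P450, fell by 1.36 on the log2 scale (adjusted p = 0.0259), and Cyp27a1 and Slc13a3 also fell. Cyp2e1, another pericentral P450, was 2.41 lower on the log2 scale in KO by its estimate without passing (-2.41 ± 0.555, adjusted p = 0.064), and Axin2, a target of Wnt signalling, had -0.65 (adjusted p = 0.0755). The gene that rose was Lhpp, a phosphatase named here because it was the single call in its direction, by 2.26 (adjusted p = 0.00862). Oat therefore moved with Lhpp and against the median of the zone, Glul was on the side of that median, and Rhbg showed neither difference past the test. The pericentral median relative to WT was -0.387 in KO 1, -1.39 in KO 2 and -0.847 in KO 3, the same order of libraries as for Glul. The lower calls numbered 14 without KO 1, where 14.2% of all genes were called lower, and also 14 with replicates 2 and 3 alone, where 16.1% were. They numbered 0 without KO 2, KO 3, WT 2 or WT 3, where 14, 4, 1 and 3 of all genes were called lower. The single higher call was lost without WT 2 or WT 3, where 5 and 17 of all genes were called higher.

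Of 21 periportal genes, among them Gls2 and Etnppl, 8 rose past the threshold, and 6 of the other 19, against 2.15% of all genes tested. With edgeR 0 were called lower, although 2 were lower at an unadjusted p-value under 0.05. DESeq2 called 3 lower and limma voom 0, against 1019 and 178 of all genes tested. The median log2 fold change of the 19 was 0.99. The zone was not uniform. Sds, which deaminates serine and releases ammonia, rose by 2.57 (adjusted p = 0.0346), whereas Cyp2f2, a periportal P450, had 613.9, 152.2 and 176.1 CPM in KO and 690, 1219 and 1260 CPM in WT (log2 fold change -1.75 ± 0.582, adjusted p = 0.123). Without KO 1 the list had 15 higher and 4 lower calls (16% and 14.2% of all genes), and with replicates 2 and 3 alone 14 and 4 (17.2% and 16.1% of all genes). Without any 1 of the other libraries it had between 0 and 1 higher, where 5 to 152 of all genes were called higher.

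The genes whose level followed each of these most closely over the 6 libraries were found by Pearson correlation of log2 CPM among 7499 genes with a mean of at least 10 CPM. For Oat they were Caprin1 (0.998), the cationic amino acid transporter Slc7a2 (0.995) and the mitochondrial ribosomal protein gene Mrpl15 (0.994). For Gls2 they were Cisd3, Sdc1 and Caprin1, all at 0.998. Fgb (fibrinogen beta chain), Chd3 and Zfp523 followed Glul, at 0.999, 0.998 and 0.998, and in each of them KO 1 also lay between WT and the other KO libraries. For Etnppl they were Gtf2e1 and Mrpl37 at 0.998 and Hfe at 0.997. All points share the KO and WT split and 6 libraries are few, and 165 to 464 genes had a correlation over 0.95 with each of these 4 genes, so the values only describe likeness in these libraries.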

How the data were processed

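The authors deposited 1 table of expected counts per gene, the read numbers that RSEM estimates, for 6 libraries. Per the submitters' processing notes, bcl2fastq 2.17, cutadapt 1.18, STAR 2.7.0f and RSEM 1.3.1 were used, and the build named is mm9. All 55450 gene identifiers with versions and symbols match GENCODE M21 on GRCm38, so positions and lengths were taken by identifier from that annotation. Expected counts were rounded, filtered with filterByExpr and scaled by TMM, and KO was compared with WT by the quasi-likelihood test of edgeR 4.0.16 in R 4.3.3, with the group as the only term and Benjamini-Hochberg adjustment over 14539 genes. An SE is the log2 fold change divided by the square root of the F statistic. Log2 CPM values use a prior count of 2. DESeq2 1.42.0, limma 3.58.1 (voom), other scalings, no filter, a replicate block, a term for Xist or Y-linked counts, and left-out libraries were alternatives. Transcripts were compared with blastn 2.17.0.

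The 6 genes, the pathway, zone and marker lists and the naming rule were chosen with earlier results of these data known. Named were the 6 genes, Stk11, every pathway gene past the threshold and a fixed set of pathway and zone genes (1 of that set is not reported here), plus the 3 most alike genes per member for Gls2, Glul, Oat and Etnppl. Cyp27a1, Slc13a3 and Lhpp were named after their values were seen. Depth was 47659122 to 56147667 counts per library.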

Additional observations from a re-analysis of the deposited data

Results flagged for a closer look

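The replicate 1 pair (Xist counts) and replicates 2 and 3 (Y-linked counts) differed in the KO effect, by test or by direction, for 3 of the named genes, none of them among the 6 described. The interaction on the log2 scale was 2.75 for Cyp2f2 (adjusted p = 0.0175 in edgeR), whose log2 ratio of KO to WT was -0.17 in the pair and -2.92 in the other libraries. It was -2.16 for Sds (adjusted p = 0.0234), with ratios of 1.06 and 3.23. Otc had opposite directions in the 2 subsets, with log2 ratios of 0.22 in the pair and -0.65 in the others, and its interaction did not pass the test (adjusted p = 0.455). Of all genes tested, 421 (2.9%) passed it. The pair is 1 library against 1, and it holds the KO library with the highest Stk11 level.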

How the results depend on the processing

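Leaving out 1 library at a time, log2 fold changes ran from 1.92 to 2.26 for Gls2, 2.83 to 3.09 for Oat, 2.96 to 3.63 for Etnppl, -4.22 to -1.82 for Glul, -0.46 to -0.24 for Glud1 and 0.28 to 0.86 for Rhbg. In every alternative run, the direction of each of these 6 was that of the reported value. Gls2, Oat and Etnppl kept their calls under RLE size factors, library size alone, no filter, DESeq2 and limma voom. Adjusted p-values over all alternatives ran up to 0.112, 0.0639 and 0.14 for them, from 0.0028 to 0.385 for Glul, 0.193 to 0.579 for Glud1 and 0.156 to 0.667 for Rhbg. Of the 6 genes, 0 to 3 were called higher and 0 to 1 lower, the latter Glul without KO 1 and with replicates 2 and 3 alone (-4.14, 1 lower). Over these left-out libraries, calls ranged from 5 to 2372 higher and 1 to 2101 lower for all genes, 0 to 25 and 0 to 5 for the pathway list (median 0.49 to 0.70), 0 to 1 and 0 to 14 for the pericentral list, and 0 to 15 and 0 to 4 for the periportal list. The log2 ratio differences ran from 4.49 to 6.61 for Gls2 to Glul and from 5.44 to 7.38 for Oat to Glul.

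The other settings moved counts as follows, higher before lower. All genes went from 313 and 177 to 485 and 286 with no filter, 1271 and 1019 in DESeq2, 2507 and 2340 with replicates 2 and 3 alone, and 779 and 725 with the Xist or Y-linked state as a term, and scaling by library size alone gave 380 and 131. The pathway list went from 8 and 1 to 25 and 4 in DESeq2, 24 and 4 with replicates 2 and 3 alone (median 0.74), 15 and 2 with the state as a term, 13 higher with no filter and 0 lower with library size alone. Lower pericentral calls went from 3 to 9 in DESeq2, 14 with replicates 2 and 3 alone and 8 with the state as a term. Periportal calls went from 8 and 0 to 15 and 3 in DESeq2 and 14 and 4 with replicates 2 and 3 alone, with 1 lower with the state as a term. The Glul interaction was 2.97 (adjusted p = 1.09e-05) with no filter. The cause of these shifts was not tested.

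Same-numbered KO and WT libraries deviated from their group means with correlations of 0.178, 0.044 and 0.068, and KO 2 and KO 3 correlated best with another number, so the numbers were not taken to pair the animals. With the replicate block, Gls2 was at 2.10 (adjusted p = 0.0539), Oat at 2.98 (adjusted p = 0.0348) and Etnppl at 3.20 (adjusted p = 0.0302), and calls were 79 and 26 for all genes, 1 and 0 for the pathway list, 0 lower for the pericentral and 1 higher for the periportal list. Counting error bears most on Rhbg, with 249 counts in KO 3.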
